A study of Mus musculus with 6 samples.

Results

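The lncRNA Charme, its protein partner Matr3 and 7 further genes of nuclear bodies were followed in mRNA of native cardiac fibroblasts (CFs) from wild-type (WT) and CharmeKO mouse hearts. The 9 genes were taken from the 49548 genes of the count table by name, Charme by the identifier CUFF405 and the others by gene symbol. The rule holds no measured value, but the genes were chosen with earlier results of these data known. They are Charme, Malat1 and Neat1, which are non-coding RNAs, and Matr3, Sfpq, Nono, Pspc1, Hnrnpu and Ptbp1, which encode RNA-binding proteins. The study compared 3 WT with 3 CharmeKO samples from C57BL/6 J mice aged 5 weeks. In the CharmeKO animals a poly(A) signal was inserted in the Charme locus of the germline, so every cell type of the heart carries the allele. Hearts were dissociated enzymatically and depleted of hematopoietic cells, a procedure that leaves non-cardiomyocyte cells. The labels of the same libraries also give a growth medium, whereas the methods call native CFs freshly isolated, a term kept here.

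Nuclear bodies are compartments without a membrane in which RNA and RNA-binding proteins collect. Neat1 is the RNA scaffold of paraspeckles, around which the related proteins SFPQ, NONO and PSPC1 assemble, and Malat1 is an abundant RNA of nuclear speckles, where splicing factors are stored. MATR3 (Matrin 3) and HNRNPU (also called SAF-A) are proteins of the nuclear matrix that bind RNA, and PTBP1 is a splicing repressor that binds pyrimidine-rich RNA and interacts with MATR3. Charme is a lncRNA of striated muscle. Its nuclear isoform pCharme keeps the first intron, stays near its site of transcription and gathers MATR3 into nuclear condensates in cardiomyocytes. These libraries come from cells in which Charme itself was scarce, and hold poly(A)-selected RNA of a whole cell preparation. They measure RNA levels and neither the place of an RNA or protein in the nucleus nor the amount of protein.

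The amplicon of the primer pair that the study lists for pCharme is shown to place the Charme transcript in the genome. The study's primer pair matched gene 5430431A17Rik of GENCODE mouse release 21 (GRCm38), a transcript of 3 exons on the plus strand. The forward primer lies in exon 1 at chr7:44473541-44473560 and the reverse primer in exon 2 at chr7:44484951-44484970, with the first intron of 11.2 kb between the exons. Exon 1 of this model is 23 bases long. A spliced product lacks the first intron of this model. Whether that is the intron that pCharme keeps was not checked, so this model does not settle which isoform the primer pair measures. The spliced product is 263 bases, with the primer sites in capitals, the reverse one as its complement:
pCharme amplicon: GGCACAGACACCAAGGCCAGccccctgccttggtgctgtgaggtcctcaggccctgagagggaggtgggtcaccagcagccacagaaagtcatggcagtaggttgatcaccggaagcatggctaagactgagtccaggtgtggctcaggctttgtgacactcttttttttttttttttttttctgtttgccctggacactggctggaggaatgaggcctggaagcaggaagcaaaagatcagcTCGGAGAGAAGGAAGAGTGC
The count table has no row under the Ensembl identifier of that gene, so Charme reads are those counted under CUFF405, on coordinates that the authors added and that were not compared here with this GENCODE model.

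The 3′ ends of Malat1 and Neat1 bear on what a poly(A)-selected library can hold. The last 80 bases of the GENCODE transcripts on the minus strand of chromosome 19 are printed with the polyadenylation signal AATAAA in capitals. Malat1 (6983 bases) ends at chr19:5795690-5795769, the short Neat1 isoform (3004 bases) at chr19:5842307-5842386 and the long Neat1 isoform (20771 bases) at chr19:5824708-5824787, all on GRCm38.
Malat1: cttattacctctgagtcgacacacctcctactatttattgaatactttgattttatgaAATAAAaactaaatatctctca
Neat1 short isoform: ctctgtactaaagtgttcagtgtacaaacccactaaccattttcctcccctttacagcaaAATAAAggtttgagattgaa
Neat1 long isoform: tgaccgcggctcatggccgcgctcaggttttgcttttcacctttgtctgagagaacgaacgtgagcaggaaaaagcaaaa
The signal begins 22 bases from the end of Malat1 and 20 bases from the end of the short Neat1 isoform, and the last 80 bases of the long isoform hold no copy. Of 3011 lincRNA transcripts of at least 1000 bases in the same annotation, 37.9% hold AATAAA in their last 80 bases. The long Neat1 isoform, the one that builds paraspeckles, is known to end in a triple helix in place of a poly(A) tail, and gene counts do not tell the isoforms apart. A value for Neat1 is therefore a value for both isoforms, captured with an unknown yield. A signal in the annotated sequence does not show that an RNA carries a poly(A) tail, so the yield of Malat1 is unknown as well.

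Short motifs were counted on the sense strand of these RNAs, ATCTT as a preferred site of MATR3 and TCTT as one of PTBP1, where each ATCTT also contains a TCTT. The spliced Charme transcript of 1332 bases holds 1 ATCTT and 7 TCTT, or 0.751 and 5.26 per kb. Malat1 holds 10 and 52, or 1.43 and 7.45 per kb, and the long Neat1 isoform holds 26 and 137, or 1.25 and 6.60 per kb. The median of the 3011 lincRNA transcripts was 1.33 per kb for ATCTT, which 88.4% of them hold, and 6.24 per kb for TCTT, which 99.9% hold. Malat1 lay above and Charme below the median for both motifs, Charme with a single ATCTT. The first intron that pCharme keeps was not searched.

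The 6 libraries held between 9595701 (WT replicate 3) and 42101393 (WT replicate 1) counts on genes. Marker genes of fibroblasts summed to 42691 to 44909 CPM (each count scaled to its library total) in WT and 37381 to 44156 CPM in CharmeKO, and all 14 were tested. Other cells were present as well, with endothelial markers at 9807 to 11744 CPM in WT and 11957 to 15396 CPM in CharmeKO, erythroid genes at 27066 to 38014 and 23907 to 32955 CPM, and leukocyte genes at 30.1 to 57.5 and 41.8 to 57.8 CPM. Epicardial markers summed to 57.1 to 70.7 CPM in WT and 36.2 to 40.7 CPM in CharmeKO, and 1 of the 6 tested was called lower. No marker of these lists was at 0 in all libraries. In such bulk samples, fewer cells of a type and less RNA per cell cannot be told apart. Xist marked 3 libraries (WT replicate 1, CharmeKO replicates 1 and 2) and Y-linked transcripts the other 3, and CharmeKO replicate 1 held both, with 136 Y-linked counts or 5.06 CPM. That is 5.19% of the mean of the 3 libraries with full Y-linked expression, while WT replicate 1 and CharmeKO replicate 2 had 0 Y-linked counts. In those 3 libraries Xist was low, at 2.40 CPM in WT replicate 2, 0 in WT replicate 3 and 0.290 in CharmeKO replicate 3. It was 399 CPM in WT replicate 1.

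Charme was lower in CharmeKO, but was near the limit of detection in every library. It had 26, 15 and 4 counts in WT replicates 1, 2 and 3, and 7, 0 and 0 counts in CharmeKO replicates 1, 2 and 3. The groups did not overlap when counts were scaled to the library total, with 0.618, 0.537 and 0.417 CPM in WT and 0.260, 0 and 0 CPM in CharmeKO. The gap between WT replicate 3 and CharmeKO replicate 1 lies within counting error. The exact 95% interval of WT replicate 3, 0.114 to 1.07 CPM, covers the value of CharmeKO replicate 1. With no read counted, the limit is set at 3 reads, or 0.127 CPM in CharmeKO replicate 2 and 0.0966 CPM in CharmeKO replicate 3. The WT mean of 0.524 ± 0.101 CPM (SD, n = 3) exceeded that of CharmeKO, 0.0868 ± 0.150 CPM (SD, n = 3), by more than the spread of either group. In a two-sided exact permutation test the difference of −0.437 CPM had p = 0.1, which 3 against 3 libraries cannot go below.

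Pooled over libraries, 45 Charme counts in WT and 7 in CharmeKO gave a 6.58-fold lower level in CharmeKO, with an exact 95% interval of 2.94 to 17.3 that covers counting error only. edgeR's quasi-likelihood test gave a log2 fold change of −2.66 (SE 1.14) with an unadjusted p of 0.0388 and an adjusted p of 0.362, so Charme did not pass the threshold of 0.05 over the 15789 genes tested. Removing libraries singly, the fitted value ranged from −6.88 to −2.07, the former without CharmeKO replicate 1, where both remaining CharmeKO libraries are at 0 and the value depends on the prior count. By mean normalized CPM, Charme ranked 15165 of these genes. It entered them through WT replicates 1 and 2 alone, as no other library reached the 10 counts that the gene filter asks for. Without a gene filter its log2 fold change was −2.65 (edgeR adjusted p = 0.298). All of the Charme signal in CharmeKO came from replicate 1, whose 0.260 CPM was 49.7% of the WT mean, with an exact 95% interval of 0.105 to 0.536 CPM. CharmeKO replicates 2 and 3 together had 0 counts among 54599324, which allows up to 0.0549 CPM over both. The pooled WT level was 10.3-fold above that limit. This value ignores the counting error in WT and also leaves out CharmeKO replicate 1.

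**Figure D1:**
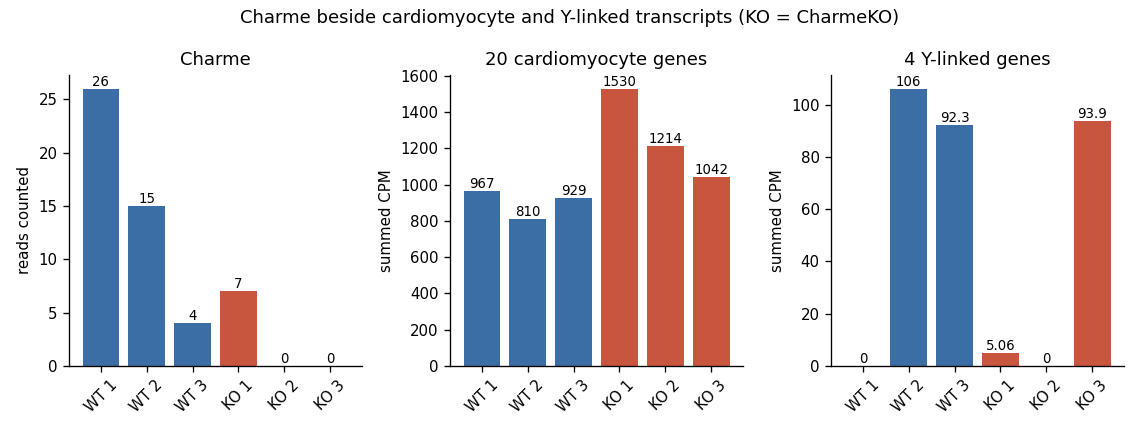
Bars show, for each of the 6 libraries (WT in blue, CharmeKO, written KO, in red), the reads counted on Charme, the summed CPM of 20 cardiomyocyte genes and the summed CPM of 4 Y-linked genes (Ddx3y, Kdm5d, Uty, Eif2s3y). CharmeKO replicate 1 holds all 7 Charme counts of its group, the highest cardiomyocyte sum (1530 CPM) and a low Y-linked sum (5.06 CPM).

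Charme is a transcript of cardiomyocytes, and cardiomyocyte RNA was not at the same level in the groups. The 20 cardiomyocyte genes summed to 967, 810 and 929 CPM in WT and to 1530, 1214 and 1042 CPM in CharmeKO, so that the groups did not overlap and Charme and its usual source moved in opposite directions. Of the 19 that were tested, 3 were called higher, Tnni3, Myh6 and Mb, which encode cardiac troponin I, a myosin heavy chain and myoglobin, and 0 were called lower. The median log2 fold change of the list was 0.58, against 0.0096 over all tested genes. A large part of the sum was Atp2a2, with means of 353 normalized CPM in WT and 339 in CharmeKO (log2 fold change −0.058). It was the 1 tested gene of the list with a lower value, beside 18 with a higher one. The sums and the percentages that follow include Atp2a2. Set against the cardiomyocyte counts of the same library, Charme counts came to 0.0638%, 0.0663% and 0.0449% in WT and 0.0170%, 0% and 0% in CharmeKO. On this scale too the groups did not overlap, with means of 0.0583% ± 0.0117 and 0.00567% ± 0.00983 (SD, n = 3). The lowest WT value rests on 4 Charme counts and the highest CharmeKO value on 7.

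CharmeKO replicate 1 stood apart in Charme, in cardiomyocyte RNA (1.70 times the WT mean) and in its few Y-linked counts. A gene with a wide gap between the genotypes, 9930111J21Rik2, which was picked for that gap, had 2050, 1606 and 538 counts in WT and 20, 3 and 12 in CharmeKO. Its level in CharmeKO replicate 1 was 1.38% of the WT mean. The part of any admixed RNA in the 7 Charme counts was not tested. Without this library, the difference in Charme was −0.524 CPM.

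None of the 9 genes passed the threshold in CharmeKO against WT, in edgeR or in DESeq2, where the lowest adjusted p among them were 0.362 and 0.308. Over all tested genes edgeR called 131, or 0.83%, with 0.418% higher and 0.412% lower. At an unadjusted p under 0.05, edgeR gave 1 of the 9, Charme, and DESeq2 gave 2, Charme and Ptbp1, beside 12.8% of all tested genes in edgeR. Charme was also the only member whose groups did not overlap in normalized CPM, 1 of 9 beside 18.2% of all tested genes, of which 8.59% were lower and 9.57% higher in CharmeKO. Charme had entered the tested genes through WT counts alone. The 8 other genes differed by at most 0.27 on the log2 scale.

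**Figure D2:**
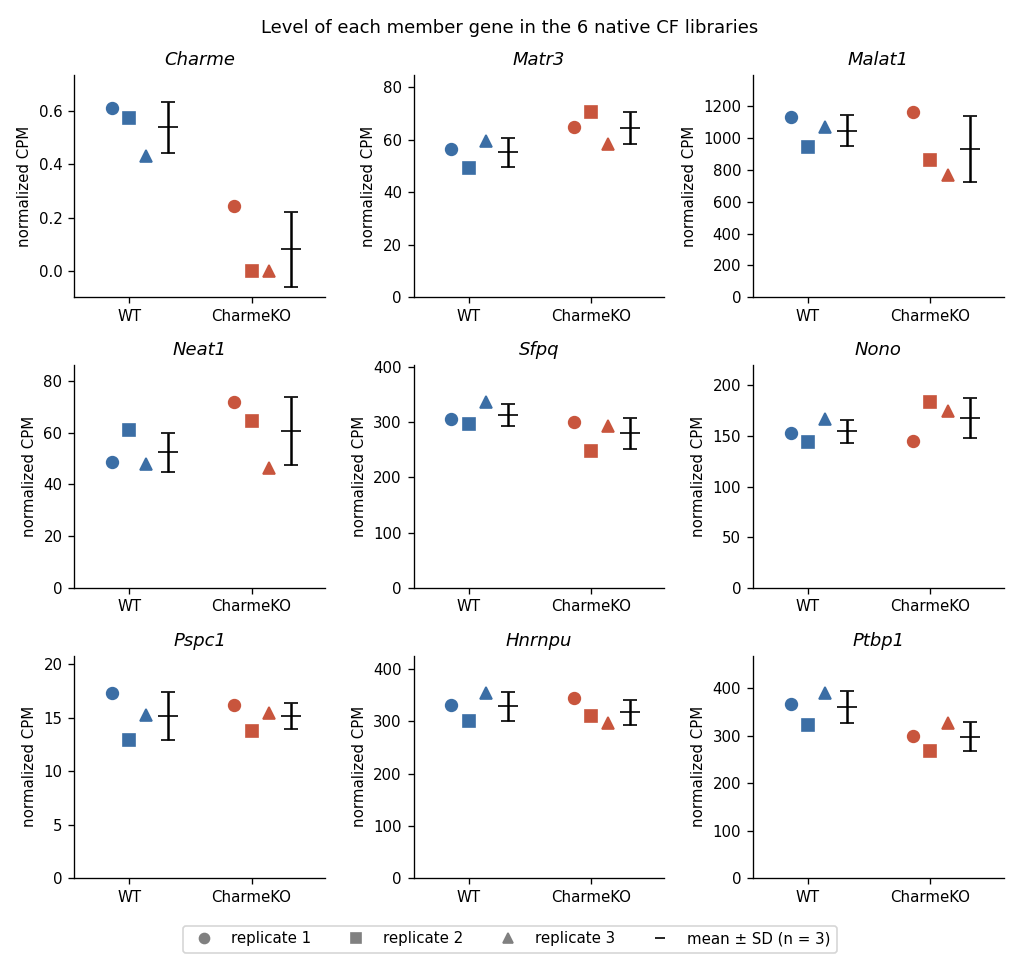
Each panel plots the normalized CPM (y axis, linear) of a member gene in the 3 WT (blue) and 3 CharmeKO (red) libraries, with the mean ± SD (n = 3) in black and the symbol giving the replicate number. The groups are apart for Charme, with CharmeKO replicate 1 at 0.245 and the lowest WT library at 0.430, and overlap for the 8 other genes. Those Charme values rest on 7 and 4 counts respectively.

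Matr3, the partner of pCharme, was not lower in CharmeKO. Its level was 56.7, 49.1 and 59.7 normalized CPM in WT and 64.8, 70.6 and 58.3 in CharmeKO. CharmeKO replicates 1 and 2 lay above every WT library, and CharmeKO replicate 3 below the highest of them. The log2 fold change was 0.23 (SE 0.12, 95% interval −0.033 to 0.49), with an adjusted p of 0.458 in edgeR. That interval spans folds of 0.977 to 1.41, so a fall of Matr3 mRNA beyond a few percent lies outside it, and a rise of up to 1.41-fold inside it. Among the libraries with Xist the mean difference was 0.26 (1 WT, 2 CharmeKO) and among those with Y-linked transcripts 0.11 (2 WT, 1 CharmeKO). In GENCODE, exons of Matr3 overlap those of the same-strand gene Gm28285, which the count table does not list.

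Ptbp1 was lower on average in CharmeKO. It stood at 366, 323 and 391 normalized CPM in WT and at 299, 268 and 328 in CharmeKO. CharmeKO replicate 3 lay just above WT replicate 2, and the other 2 CharmeKO libraries lay below all of WT. The log2 fold change was −0.27 (SE 0.13, 95% interval −0.56 to 0.016), with an adjusted p of 0.418 in edgeR. Within the Xist libraries it differed by −0.37 and within the Y-linked libraries by −0.12.

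The ratio of Matr3 to Ptbp1 counts within a library does not depend on how libraries are scaled, and its groups did not overlap. It was 0.155, 0.152 and 0.153 in WT, and 0.216, 0.263 and 0.178 in CharmeKO. The WT libraries lay close together (SD 0.014 on the log2 scale), and every CharmeKO library was higher. WT replicate 3 had 555 Matr3 counts, whose counting error alone exceeds that SD, so the closeness cannot be taken as a trait of WT. The mean log2 ratio was −2.71 ± 0.014 in WT and −2.21 ± 0.28 in CharmeKO (SD, n = 3), differing by 0.50 (two-sided exact permutation test, p = 0.1, again the lowest it can give, and 0.3 adjusted over the 6 ratios computed). Leaving out each library in turn kept it between 0.36 and 0.64. The difference was 0.63 among the Xist libraries and 0.22 among the Y-linked ones.

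Hnrnpu, whose product attaches RNA to chromatin and the nuclear matrix, was not called. Its values were 331, 300 and 355 normalized CPM in WT and 344, 310 and 297 in CharmeKO, with overlapping groups and a log2 fold change of −0.052 (SE 0.12, edgeR adjusted p = 0.899). Its ratio to Matr3 was 5.85, 6.12 and 5.95 in WT and 5.32, 4.40 and 5.09 in CharmeKO. All 3 CharmeKO libraries lay below WT, with mean log2 ratios of 2.58 ± 0.033 and 2.30 ± 0.14 (SD, n = 3) differing by −0.28 (two-sided exact permutation test, p = 0.1, adjusted 0.3). This ratio shares its Matr3 counts with the previous one and is not independent of it. It was lower by −0.27 in the Xist and by −0.24 in the Y-linked libraries. Of the 6 ratios, these 2 were the ones in which the groups did not overlap, and both hold Matr3. The share of such ratios over other gene pairs was not computed. Among single genes, 18.2% of all tested had groups that did not overlap.

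**Figure D3:**
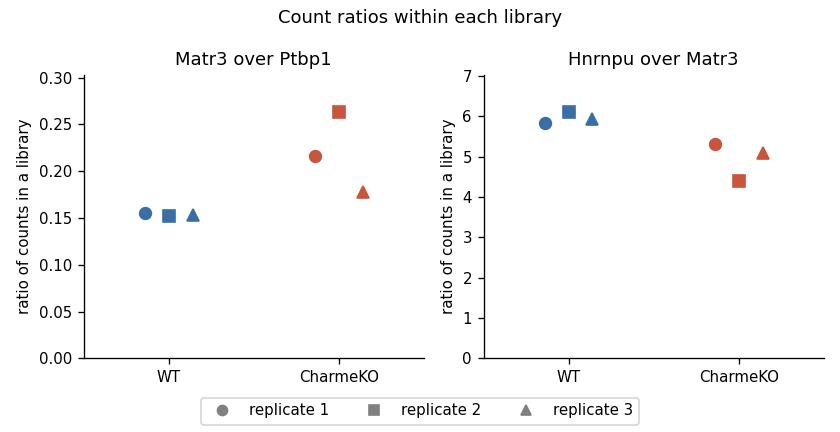
Count ratios of Matr3 over Ptbp1 (left) and Hnrnpu over Matr3 (right) in each library, on linear axes that start at 0, for WT (blue) and CharmeKO (red), the symbol giving the replicate. The WT libraries sit at 0.152 to 0.155 and at 5.85 to 6.12, and the CharmeKO libraries spread from 0.178 to 0.263 and from 4.40 to 5.32.

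Malat1 was by far the most abundant member. It had 1128, 941 and 1065 normalized CPM in WT and 1162, 861 and 767 in CharmeKO. CharmeKO replicate 1 was the highest of all libraries and CharmeKO replicate 3 the lowest, so that the spread within CharmeKO (930 ± 206, SD, n = 3) exceeded the difference from WT (1045 ± 95.2). The log2 fold change was −0.17 (SE 0.17, edgeR adjusted p = 0.740). It ranked 108 of the 15789 tested genes.

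Neat1, the paraspeckle scaffold, had 48.6, 61.3 and 47.8 normalized CPM in WT and 71.8, 64.6 and 46.3 in CharmeKO. CharmeKO held both the highest and the lowest library. The log2 fold change of 0.21 (SE 0.16, 95% interval −0.15 to 0.57) did not pass the test (edgeR adjusted p = 0.648), and its sign differed between the libraries with Xist (0.49) and those with Y-linked transcripts (−0.23). Neat1 is known to be induced by heat shock and other stress. In these libraries the heat shock genes Hspa1a and Hspa1b were called higher in CharmeKO, with log2 fold changes of 1.30 and 1.59 (edgeR adjusted p = 0.0116 and 0.0176). The genes are near-identical copies, and reads that match both may be missing from their counts. Of 20 genes of the response to tissue dissociation, these were the 2 called, and the summed level of the list was 40965 to 54977 CPM in WT and 47763 to 52776 CPM in CharmeKO. Their part in the Neat1 values was not tested.

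The count ratio of Neat1 to Malat1 was 0.0431, 0.0652 and 0.0448 in WT and 0.0618, 0.0750 and 0.0603 in CharmeKO. WT replicate 2 lay among the CharmeKO libraries and the other WT libraries below all of them. The mean log2 ratio differed by 0.38 between the groups (two-sided exact permutation test, p = 0.3, adjusted 0.48). Within WT this ratio varied with an SD of 0.33 on the log2 scale.

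The 3 proteins of the DBHS family form dimers with each other, and none of their mRNAs passed the threshold. Sfpq had 306, 298 and 336 normalized CPM in WT and 300, 248 and 293 in CharmeKO, a log2 fold change of −0.16 (SE 0.13, edgeR adjusted p = 0.647). CharmeKO replicates 2 and 3 were below all WT libraries and CharmeKO replicate 1 was among them. The same-strand gene Gm12940, whose exons overlap Sfpq, had 113 to 735 counts per library, against 3126 to 13009 for Sfpq.

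Nono, which lies on chromosome X, had 153, 144 and 167 normalized CPM in WT and 145, 183 and 175 in CharmeKO, a log2 fold change of 0.12 (SE 0.13, edgeR adjusted p = 0.763). Its highest library, CharmeKO replicate 2, was the library in which Sfpq was lowest. Pspc1 had 17.4, 12.9 and 15.3 normalized CPM in WT and 16.2, 13.8 and 15.5 in CharmeKO. Its log2 fold change of −0.0014 (SE 0.16, 95% interval −0.35 to 0.34) was the smallest of the 9, and that interval spans folds of 0.787 to 1.27 (edgeR adjusted p = 0.999).

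The mRNAs of the family were also compared by count ratios, which are not corrected for transcript length and do not measure protein. Sfpq to Nono was 1.99, 2.06 and 2.02 in WT and 2.06, 1.35 and 1.68 in CharmeKO, so that CharmeKO replicate 1 lay with the WT libraries and the other CharmeKO libraries were lower. The difference of the mean log2 ratio was −0.28 (two-sided exact permutation test, p = 0.4, adjusted 0.48). The SD of the ratio on the log2 scale was 0.025 in WT and 0.31 in CharmeKO. Counting error in WT replicate 3, with 1549 Nono counts, exceeds the WT SD, so this closeness cannot be taken as a trait of WT either. Sfpq to Pspc1 and Nono to Pspc1 differed by −0.17 and 0.11 with p = 0.4 and 0.5 in the same exact permutation test, with overlapping groups.

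**Figure D4:**
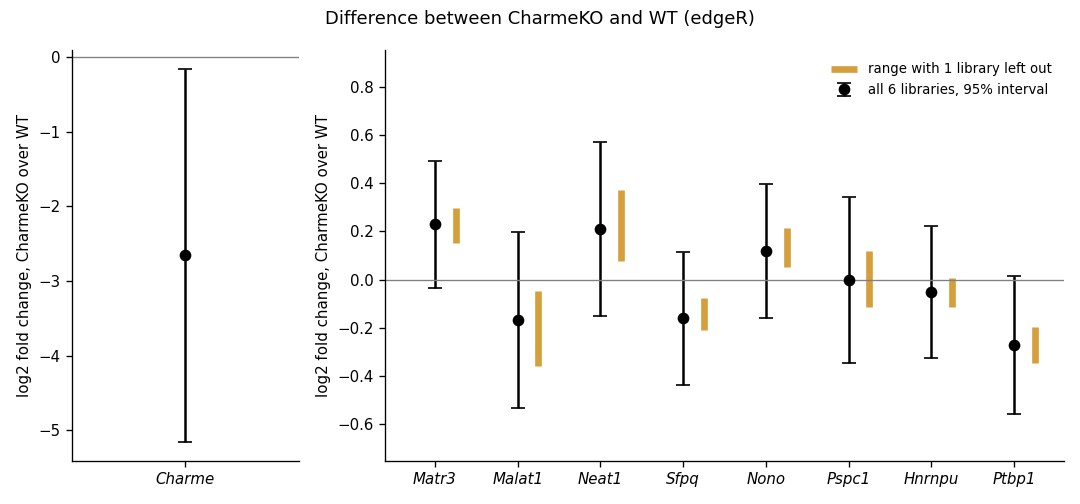
Points give the edgeR log2 fold change of CharmeKO over WT from all 6 libraries with its 95% interval, Charme on an axis of its own at the left, and yellow bars the range of the estimate with 1 library left out, drawn for the 8 genes other than Charme. The interval of Charme (−5.15 to −0.16) is the widest and excludes 0 before adjustment, while the other intervals include 0 and lie between −0.56 and 0.57.

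Levels of different genes were compared per kb of annotated exon, with the exons of all annotated transcripts of a gene joined. On this scale Malat1 was highest, with 149.6 ± 13.6 CPM per kb in WT and 133 ± 29.6 in CharmeKO (SD, n = 3). Ptbp1 (75.9 ± 7.20 and 63.0 ± 6.32) and Sfpq (66.0 ± 4.30 and 59.1 ± 5.96) followed, and their ranges over the 6 libraries, 56.5 to 82.4 and 52.3 to 70.9 CPM per kb, overlap. Next came Nono (35.4 ± 2.57 and 38.4 ± 4.57) and then Hnrnpu (28.4 ± 2.36 and 27.3 ± 2.12), whose ranges of 33.0 to 41.9 and 25.6 to 30.6 CPM per kb do not. Matr3 was far lower (5.43 ± 0.54 and 6.35 ± 0.61). Pspc1 (2.65 ± 0.39 and 2.65 ± 0.22) and Neat1 (2.53 ± 0.36 and 2.93 ± 0.63) overlapped at the bottom. Neat1 was divided by the 20.8 kb of its long isoform, which understates the level if most reads come from the short isoform. The joined lengths of Hnrnpu (11.6 kb) and Matr3 (10.16 kb) understate their levels in the same way if shorter transcripts prevail. The order therefore depends on these lengths. Before division by length, Hnrnpu (mean of 329 normalized CPM in WT) lay above Nono (155), whose joined length is 4.375 kb.

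Since a poly(A) signal was inserted in the Charme locus, its neighbours in GENCODE were read as well. Emc10, the nearest gene downstream of Charme at 3.8 kb, encodes a subunit of the membrane protein insertion complex of the endoplasmic reticulum. It had 167, 170 and 176 normalized CPM in WT and 118, 128 and 162 in CharmeKO. Every CharmeKO library was below every WT library, as for 8.59% of all tested genes. The log2 fold change in edgeR was −0.33 (SE 0.13, unadjusted p = 0.0308), which did not pass the adjustment over all genes (adjusted p = 0.330). Josd2, a deubiquitinase gene on the other side, had a log2 fold change of −0.064 (edgeR adjusted p = 0.890), and Garin5a (Fam71e1 in GENCODE), at 4 to 29 counts per library, of 0.23 (adjusted p = 0.917). Aspdh, Mir7052 and Gm44646 had at most 6 counts in any library and were not tested.

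The wider set of nuclear body genes was described by 7 lists. No gene of any list passed the threshold in edgeR with all 6 libraries and the gene filter used here, beside 0.83% of all tested genes, and the list medians lay between −0.098 and 0.030 on the log2 scale, beside 0.0096 over all tested genes. The range of list medians is therefore narrow beside the 0.58 of the cardiomyocyte genes. Some genes belong to a list and to the 9 members at once.

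Among 34 paraspeckle proteins, 3 of them members, the median log2 fold change was −0.046, and 1 gene had an unadjusted p under 0.05, beside 12.8% of all tested genes. That gene was Ahdc1, at 112, 122 and 138 normalized CPM in WT and 98.6, 86.8 and 116 in CharmeKO, with a log2 fold change of −0.30 and an edgeR adjusted p of 0.389. Sf1, which encodes a splicing factor that recognizes the branch point, had a log2 fold change of −0.23 (edgeR adjusted p = 0.461). In the list 8.82% of genes had groups that did not overlap, beside 18.2% of all tested genes. Among 15 regulators of paraspeckles the median was −0.013, and Ints1 had the lowest p.

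Ints1, the largest subunit of the Integrator complex that cleaves nascent RNA, stood at 102.8, 110 and 115 normalized CPM in WT and at 78.8, 84.9 and 93.9 in CharmeKO. All CharmeKO libraries were below all WT libraries, as for 8.59% of all tested genes. Its log2 fold change was −0.35 (SE 0.11), with an edgeR adjusted p of 0.235.

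For 39 nuclear speckle proteins the median was −0.030 on the log2 scale, and 0 had an unadjusted p under 0.05, beside 12.8% of all tested genes. The lowest p were those of Clk2, a kinase of SR proteins, at −0.29 (edgeR adjusted p = 0.409), and Zc3h14, a poly(A)-binding protein, at 0.19 (edgeR adjusted p = 0.502). Both are single values of a list in which 15 genes had a higher and 24 a lower value in CharmeKO. Among 21 splicing partners of Matrin 3 and PTB, 2 of them members, the median was −0.00037. Groups did not overlap for 23.8% of that list, beside 18.2% of all tested genes. Raver2, which encodes a co-repressor that binds PTB, was at 5.08, 3.61 and 4.63 normalized CPM in WT and at 7.06, 5.56 and 7.73 in CharmeKO, without overlap, with a log2 fold change of 0.61 (SE 0.24, edgeR adjusted p = 0.308). Celf2, a splicing regulator, had a log2 fold change of −0.21 (edgeR adjusted p = 0.422).

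In the list of nuclear matrix and SAF proteins, to which Hnrnpu belongs, the median of 21 genes was −0.045. Safb2, a scaffold attachment factor, was at 80.7, 100.2 and 85.0 normalized CPM in WT and at 68.9, 72.5 and 71.2 in CharmeKO, with a log2 fold change of −0.32 (SE 0.11, edgeR adjusted p = 0.269). Lmnb1, which encodes lamin B1 of the nuclear lamina, was at 30.4, 11.7 and 45.9 in WT and at 12.5, 13.0 and 19.7 in CharmeKO. WT replicate 2 was the lowest of the 6 libraries, and without it Lmnb1 (−1.32, edgeR adjusted p = 0.00862) and Lmnb2 (−0.81, adjusted p = 0.0288) passed the threshold. With all 6 libraries their log2 fold changes were −0.94 and −0.45, with adjusted p of 0.321 and 0.584. With no gene filter Lmnb1 passed in edgeR at −0.93 (adjusted p = 1.46e-06), a nearly unchanged estimate. That setting called 699 genes in all, against 131 with the filter, and WT replicate 2 stayed the lowest library.

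The 14 genes of Cajal and PML bodies had a median of 0.030. Daxx and Pml, whose products meet in PML bodies, had the lowest p of the list and were both lower in all CharmeKO libraries than in all WT libraries. Groups did not overlap for 21.4% of the list, beside 18.2% of all tested genes. In edgeR, 2 genes of the list had an unadjusted p under 0.05, beside 12.8% of all tested genes. Daxx was at 63.5, 82.8 and 60.4 normalized CPM in WT and at 51.7, 44.6 and 57.3 in CharmeKO, and Pml at 65.5, 58.9 and 64.1 and at 49.5, 53.4 and 51.1. The log2 fold changes were −0.43 (SE 0.14) and −0.29 (SE 0.10), with edgeR adjusted p of 0.252 and 0.280. Nuclear lncRNAs, 15 genes with Malat1 and Neat1, had a median of −0.098, which was 0.092 without WT replicate 2, 0.058 without WT replicate 3, 0.0048 without CharmeKO replicate 2 and 0.032 without CharmeKO replicate 3, and 4 genes with an unadjusted p under 0.05, beside 12.8% of all tested genes. The lowest p were those of Mir99ahg, the host of a miRNA cluster, at 4.16, 3.61 and 2.69 normalized CPM in WT and 7.93, 5.69 and 5.20 in CharmeKO (log2 fold change 0.82, SE 0.26, edgeR adjusted p = 0.238), and of Dleu2, the host of miR-15a and miR-16-1, with a log2 fold change of 0.43 (SE 0.16, edgeR adjusted p = 0.292).

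**Figure D5:**
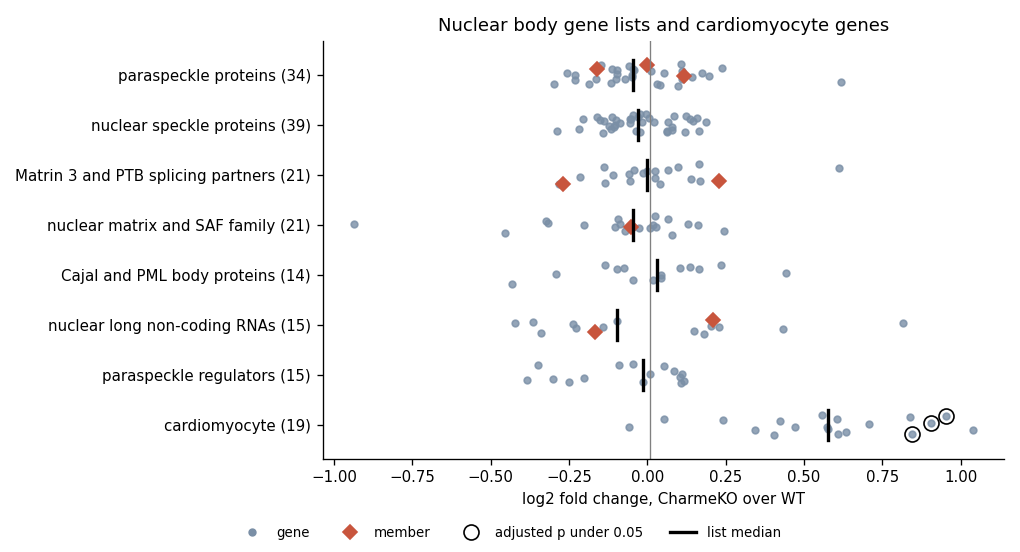
Each point is the log2 fold change (x axis) of a tested gene in CharmeKO over WT, by list (y axis, the number of tested genes in brackets), with members as red diamonds, list medians as black bars and open circles around genes with an edgeR adjusted p under 0.05. The thin vertical line is the median of all tested genes; the 7 nuclear lists lie around it with no circled gene, and the cardiomyocyte genes lie to its right with 3 circled.

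The genes whose levels over the 6 libraries were most like a member were searched among 8913 tested genes with a mean of at least 10 CPM, as the smallest root mean square (RMS) difference of centred log2(CPM + 1). The nearest to Matr3 were Tmpo (0.035), which encodes the lamina-associated polypeptide LAP2, Eloc (0.035) and Vezt (0.041), beside an RMS deviation of 0.16 of Matr3 itself. Tmpo had 116, 102.6 and 122 normalized CPM in WT and 128, 139 and 113 in CharmeKO, with WT replicate 2 lowest and CharmeKO replicate 2 highest, as for Matr3. Malat1 was followed most closely by Nasp (0.058), a histone chaperone gene, Hnrnpd (0.061), which encodes the RNA-binding protein AUF1, and Mysm1 (0.073). For Neat1 the nearest were Fcho2 (0.047), Gprasp1 (0.052) and Zfp398 (0.061). With 6 libraries and so many genes such matches are a description only.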

How the data were processed

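The authors aligned quality-filtered Illumina reads of poly(A)-selected, directional libraries with STAR to GRCm39 (the submitters' processing notes also list GRCh38 and DESeq2) and counted them per gene, in the "reverse" strand configuration, on Ensembl genes to which Charme was added. The deposited values are raw counts per gene and library, without normalization. Such counting drops reads that fall on more than 1 gene. Here, the genes that reached 10 counts in 2 or more of the 6 libraries were tested with edgeR 4.0.16 (TMM, quasi-likelihood test, Benjamini-Hochberg over 15789 genes, threshold 0.05) in R 4.3.3. CPM scales each count to its library total, with TMM factors where called normalized. SEs came from the F statistics, and the biological coefficient of variation was 20.2%. Permutation tests used scipy 1.17.1, figures matplotlib 3.10.9. Alternatives were DESeq2 1.42.0, 2 other normalizations, 3 other gene filters, the replicate number as a block, a term for the Xist and Y-linked split, and each library left out. Differences within each side of that split were added after seeing the data.

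The members and lists were chosen with earlier results of these data known. Named genes were the 9 members, the genes past the threshold or otherwise the 2 non-members with the lowest p of each nuclear list, 3 annotated neighbours on each side of Charme, and 3 genes most like Malat1, Neat1 and Matr3. A gene that this rule names is not reported here. Lmnb2, the marker genes, overlapping genes and 9930111J21Rik2 were named after their values were seen. Lengths, neighbours and transcript sequences came from GENCODE mouse release 21 (GRCm38), another build than the counts, and primers from the study. Samples came from hearts of 3 mice per genotype, though the labels do not say that each library is 1 animal, and p-values measure the spread between these samples. The exact intervals and floors of Charme cover counting error only, and edgeR's intervals include the spread between samples. Within each group, all pairs of libraries differed by more than sampling noise. The cultured CF libraries are not analysed here.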

Additional observations from a re-analysis of the deposited data

How the results depend on the processing

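No member passed the threshold under any of the 14 alternative fits, of which 3 had too few counts to test Charme, and the lowest adjusted p among members was 0.206, without CharmeKO replicate 1. Calls over all genes numbered 131, and 394 in DESeq2, 699 without a gene filter, 302 with the replicate block, and 61 to 349 with each library left out (349 without WT replicate 2 and 61 without CharmeKO replicate 1). Of 7 nuclear lists, 1 gained calls, the nuclear matrix list, with 0 to 2 as libraries were left out, and Lmnb1 was also called without a gene filter. The log2 fold change of Pspc1, near 0, turned to 0.010 with upper-quartile normalization, 0.0028 without a gene filter and 0.0052 with the replicate block, and ranged from −0.11 to 0.12 with each library left out. That of Hnrnpu ranged from −0.12 to 0.0056, and the log2 ratio of Nono to Pspc1 differed by −0.030 to 0.26, as libraries were left out. The median of the nuclear lncRNAs ranged from −0.14 to 0.092, that of the paraspeckle regulators from −0.086 to 0.028, that of the Matrin 3 and PTB partners from −0.067 to 0.046 and that of Cajal and PML body genes from −0.015 to 0.035 in the same way. The cause was not tested. The other members kept their direction in these fits.

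Deviations of same-numbered libraries correlated at 0.216, 0.0535 and 0.161, so the numbers do not meet the mark for pairs, although 6 of 6 libraries correlated best with their own number, a hint from the data and not the design. The replicate block called no member (lowest adjusted p 0.264). Depth limits Charme, where a count of 0 allows 0.0713 to 0.313 CPM. With 1 library left out, permutation tests cannot go below 0.2.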
